A study of Homo sapiens with 27 samples.

Results

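Guanines (G) of the mitochondrial genome were followed on each strand in O6-MeG-seq, an assay that lists genome positions marked as O6-methylguanine. Members were the distinct pairs of position and strand on the mitochondrial chromosome (chrM) with base G that at least 1 of 27 libraries listed. There were 7232 such sites among the 7349 G of the mitochondrial genome, 5106 of 5180 on the minus strand (98.6%) and 2126 of 2169 on the plus strand (98.02%). Of positions with another base, 96.5% on the minus and 96.4% on the plus strand were also listed by at least 1 library. The count of members alone therefore hardly sets G apart. These 7232 sites are a small part of the 149160252 sites listed over all libraries, in which mitochondrial sites of any base made up 0.101% to 0.618% of a library. The bases recorded in the lists gave the sequence of 16563 of 16569 mitochondrial positions, and 0 of 358910 repeat listings disagreed about a base.

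The cells were LN-229, an established human glioblastoma line, in which the repair gene MGMT had been transfected, or the transfection control, called wild type (WT). Each was given 1 mM temozolomide (TMZ) or the solvent (1% DMSO), once or 3 times every 4 h, and harvested 24 h after exposure began. This made 8 groups of 3 biological replicates, 12 solvent and 12 TMZ libraries. A further 3 libraries came from purified (naked) DNA treated with 1 mM TMZ, taken from non-transfected WT, from WT and from MGMT-transfected cells, so that group has 1 library per DNA source. All samples are of 1 line, and how many clones each transfected line holds is not given in the sources used here.

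TMZ is an alkylating drug that breaks down to a methylating agent, and O6-methylguanine is its most mutagenic and toxic product. MGMT takes that methyl group off again and is known mainly as a nuclear repair protein. The human mitochondrial genome is a circle present in many copies per cell, with a G-rich heavy strand and a G-poor light strand. Its few genes encode respiratory chain subunits, ribosomal RNAs and tRNAs, and its main noncoding stretch, the control region, holds the promoters and a replication origin. In these files the minus strand was the G-rich one, with G at 31.3% of its positions against 13.1% on the plus strand, a ratio of 2.39.

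The 10 examples below, 5 from each strand, show the sites listed most often after TMZ and least often with solvent. They were chosen by that difference, so their counts describe them and were not tested. Each window of 21 bases is written 5′ to 3′ on the strand named (GRCh38), with the listed G in capitals.
ND2, minus strand, chrM:4738-4758: ttaatgatgaGtattgattgg
COX1, minus strand, chrM:7189-7209: ttccggatagGccgagaaagt
RNR2, minus strand, chrM:1802-1822: attatgcttgGttataatttt
RNR2, minus strand, chrM:2057-2077: ggatttagagGgttctgtggg
RNR2, minus strand, chrM:2998-3018: tgcaccatcgGgatgtcctga
RNR1, plus strand, chrM:643-663: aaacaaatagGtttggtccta
RNR1, plus strand, chrM:739-759: cgatcaaaagGaacaagcatc
RNR1, plus strand, chrM:1352-1372: caagaaatggGctacattttc
RNR1, plus strand, chrM:1572-1592: aagtgtactgGaaagtgcact
RNR2, plus strand, chrM:2103-2123: aagaggaacaGctctttggac
The G in ND2, a subunit gene of respiratory complex I, and the G in COX1, a catalytic subunit gene of cytochrome c oxidase, were each listed by 12 of 12 TMZ libraries and 0 of 12 solvent libraries. The other 8 lie in the ribosomal RNA genes RNR1 (12S) and RNR2 (16S), and 10 to 12 TMZ libraries and 0 or 1 solvent library listed them. All 10 were listed by 3 of 3 naked DNA libraries, and in all 10 the base before the G was A or G. At the last place taken there were ties, 9 sites on the minus strand with a difference of 11 and 7 on the plus strand with a difference of 10, which were ordered by naked DNA libraries and then by lower position. The 8 sites in RNR1 and RNR2 all come from these ties. That order favours low-numbered positions, where these genes lie, so their place in these genes is not a result.

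The lists carry no read numbers, and each position and strand appears once per library, so depth can be read only from the number of sites. Libraries held 1347019 to 15745885 sites in all, of which 1084 to 6629 were mitochondrial G. Libraries also fell into 5 sets by sites they share on the autosomes more often than other pairs do, a split made in earlier work on these data, and its origin was not tested. In the set of replicate 1 after 1 exposure, the WT solvent and TMZ libraries shared 40929 autosomal sites and the MGMT solvent and TMZ libraries 104055, against a median of 2698 over all pairs. After division by the product of both libraries' site numbers, these are 152 and 289 times the median pair. The same solvent libraries shared 62213 (WT) and 67859 (MGMT) sites with the first naked DNA library, 65.2 and 62.6 times the median pair on that scale. Among mitochondrial G the MGMT pair listed 1.504 times as many in common as the product of their shares, against a median of 1.15 and a highest value of 1.51 over 351 pairs. Among the other mitochondrial bases its value of 2.11 was the highest of the 351 pairs, whose median was 1.30. The comparisons are therefore also given within sets 1, 2 and 3 and without set 1 (replicate 1 of the 4 cell groups with 1 exposure, and the first naked DNA library). Set 4 holds replicate 3 of WT and MGMT cells after 3 solvent exposures, and set 5 holds naked DNA replicates 2 and 3 alone. Naked DNA and cells therefore share only set 1, and without it their difference cannot be told apart from one between sets.

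Mitochondrial G were listed least often with solvent, more often after TMZ and most often in naked DNA, with wide spread between libraries. On the minus strand the share of G listed was 37.3% ± 12.9 (SD, n = 12) with solvent, 66.2% ± 15.0 (n = 12) in TMZ-exposed cells and 90.1% ± 2.25 (n = 3) in naked DNA. On the plus strand it was 42.6% ± 15.1, 63.0% ± 17.3 and 86.4% ± 0.715. The 95% Wilson interval of a single library extends at most 1.36 points on the minus and 2.10 points on the plus strand, counting each G as independent. The number of mitochondrial genome copies in a sample and the share of copies with a mark cannot be told apart in these lists.

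Replicates 1, 2 and 3 of WT cells after 1 solvent exposure listed 14.8%, 56.7% and 40.3% of minus-strand G and 14.6%, 63.4% and 48.7% of plus-strand G. For MGMT cells after 1 solvent exposure the values were 21.9%, 50.6% and 39.9% on the minus and 19.9%, 58.7% and 44.1% on the plus strand. In both genotypes the library of set 1 was the lowest. After 3 solvent exposures WT cells gave 33.8%, 37.5% and 31.7% on the minus and 37.4%, 43.7% and 36.4% on the plus strand. MGMT cells after 3 solvent exposures gave 56.6%, 37.0% and 26.7%, and 60.2%, 48.9% and 35.7%. The plus-strand share was the higher one in 10 of 12 solvent libraries, the exceptions being those of set 1.

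WT cells after 1 TMZ exposure listed 47.8%, 75.6% and 76.3% of minus-strand G and 32.7%, 72.4% and 72.8% of plus-strand G. MGMT cells after 1 TMZ exposure listed 33.5%, 51.1% and 59.9%, and 28.2%, 53.6% and 54.96%. The ranges of the genotypes overlapped, and those of both groups overlapped with those of solvent. In each same-numbered pair after 1 TMZ exposure the MGMT share was the lower one on both strands. After 3 TMZ exposures this held for replicates 1 and 3 but not for replicate 2. These shares rise with the number of sites in a library, and no group difference was tested on them. After 3 TMZ exposures the minus-strand shares were 77.0%, 77.1% and 80.6% in WT and 69.8%, 78.5% and 67.0% in MGMT cells. The plus-strand shares were 75.6%, 76.3% and 76.2% in WT and 72.1%, 78.2% and 63.0% in MGMT cells. All 6 libraries after 3 TMZ exposures lay above all 12 solvent libraries on the minus strand, where the highest solvent value was 56.7%. They were not fully apart on the plus strand, where MGMT replicate 3 at 63.0% lay below WT replicate 2 after 1 solvent exposure at 63.4%. Naked DNA gave 87.6%, 90.8% and 91.9% on the minus strand and 87.2%, 85.9% and 86.1% on the plus strand, above every cell library.

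**Figure D1:**
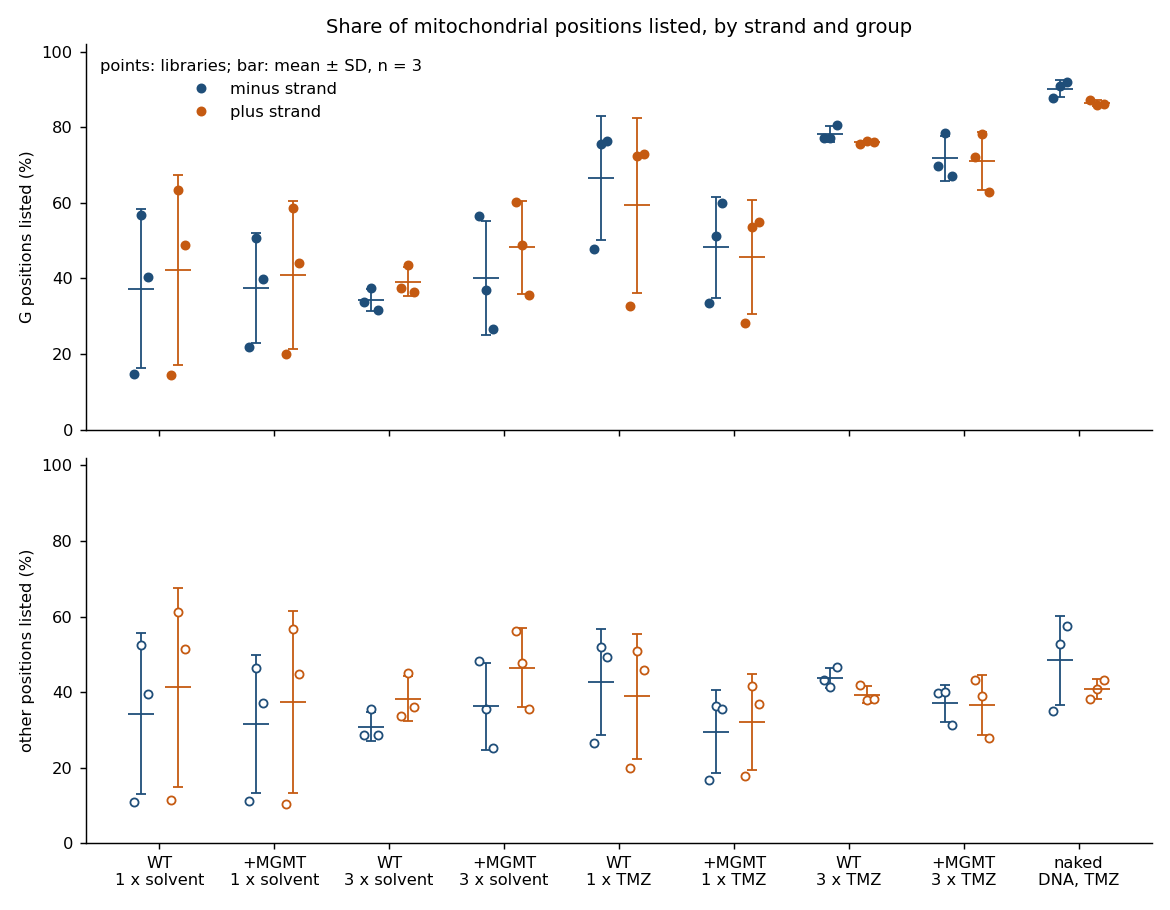
Share of G (upper panel) and of the other bases (lower panel) listed on each mitochondrial strand, in %, by group; points are libraries and bars the mean ± SD of 3. Listed G rise from a mean of 37.3% with solvent to 90.1% in naked DNA on the minus strand, while the other bases are also listed at 33.3% and 48.4%.

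Positions with another base were listed densely as well, and G are set against them below. They are not a plain background, since those next to a G were listed more often than the rest. Their share on the minus strand was 33.3% ± 13.2 with solvent, 38.3% ± 9.90 in TMZ-exposed cells and 48.4% ± 11.8 in naked DNA, and on the plus strand 40.9% ± 16.5, 36.8% ± 10.0 and 40.8% ± 2.64. To set G against the other bases at different saturation, each share was turned into a rate, the negative natural log of the share not listed. The rate of G over that of the other bases was 1.22 ± 0.292 on the minus and 1.13 ± 0.290 on the plus strand with solvent. It was 2.36 ± 0.435 and 2.29 ± 0.620 in TMZ-exposed cells, and 3.66 ± 1.03 and 3.83 ± 0.420 in naked DNA. The solvent libraries reached up to 2.09 and 1.999, and the highest on both strands was MGMT replicate 1 after 1 exposure, the library with the strongest sharing of sites with its TMZ counterpart.

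The rate ratio of G to other bases was higher after TMZ than with solvent by 0.95 on the log2 scale on the minus strand (1.94-fold). All 12 same-numbered pairs had this direction, and p was 3.75e-05 in an exact two-sided permutation test that kept genotype and exposure number fixed (adjusted p = 0.0002125 over 17 comparisons). The difference was 0.35, 0.81 and 1.20 within sets 1, 2 and 3, and 1.03 without set 1. On the plus strand it was 1.00 (2.004-fold, exact permutation p = 6.25e-05, adjusted p = 0.000265625), in 11 of 12 pairs. The exception was MGMT replicate 1 after 1 exposure at -0.24. Within sets the plus-strand difference was 0.11, 0.85 and 1.31, and without set 1 it was 1.12.

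The ratio was higher still after repeated exposure. In TMZ-exposed cells, 3 exposures exceeded 1 by 0.44 on the minus strand (1.44 ± 0.131 against 0.99 ± 0.173 on the log2 scale, n = 6 each) and by 0.69 on the plus strand (1.49 ± 0.178 against 0.81 ± 0.184). Each had exact permutation p = 0.005, the smallest this design allows, with adjusted p = 0.0106, and on both strands all 6 libraries after 3 exposures lay above all 6 after 1. With shares in place of rates the minus-strand difference was 0.19 and was not called. Set 1 holds 1 exposure only. Within sets 2 and 3 the differences were 0.50 and 0.44 on the minus and 0.59 and 0.66 on the plus strand. Without set 1 they were 0.50 and 0.68 (exact permutation adjusted p = 0.0189 for both).

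MGMT and WT cells did not differ detectably in this ratio under TMZ. The minus-strand means were 1.21 ± 0.344 in MGMT and 1.22 ± 0.216 in WT cells on the log2 scale (difference -0.01, exact permutation p = 0.92, adjusted p = 0.978), with pair differences from -0.28 to 0.18. Within sets 1, 2 and 3 the differences were 0.08, -0.20 and 0.06, so their direction was not the same. On the plus strand the difference was -0.14 (exact permutation p = 0.16, adjusted p = 0.247). These tests miss the threshold and do not show that the genotypes are alike.

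The balance of G between strands moved towards the minus strand with TMZ, and that of the other bases moved with it. The log2 ratio of minus to plus strand G rate was -0.24 ± 0.199 (n = 12) with solvent and 0.15 ± 0.215 (n = 12) with TMZ. The difference of 0.39 was present in 12 of 12 pairs (exact permutation p = 0.00015, adjusted p = 0.00051) and was 0.41, 0.23 and 0.48 within sets 1, 2 and 3. Positions with other bases also shifted, from 33.3% minus and 40.9% plus with solvent to 38.3% and 36.8% with TMZ. Relative to the other bases, in a comparison chosen after the data were seen, the log2 strand ratio of G was 0.11 ± 0.0472 with solvent and 0.07 ± 0.169 with TMZ, and the difference of -0.05 was not called (7 of 12 pairs, exact permutation p = 0.287, adjusted p = 0.431 over 3 comparisons). MGMT minus WT was -0.13 (exact permutation p = 0.335, adjusted p = 0.467, lower in 5 of 6 pairs) for G alone, and 0.13 relative to the other bases (exact permutation p = 0.05, adjusted p = 0.15, higher in 6 of 6 pairs), so neither passed. Naked DNA, at 0.22 ± 0.175, differed from WT cells under TMZ by 0.01 (exact permutation p = 1). Without set 1 the difference was 0.21 (exact permutation p = 0.0476, the smallest possible, adjusted p = 0.081), but there naked DNA and cells share no set.

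With no minimum score, the classes of libraries with more autosomal G sites listed more mitochondrial G, up to near saturation in naked DNA. At a score of 30 or more, naked DNA listed 58.6% of minus-strand and 55.4% of plus-strand G. Autosomal G sites numbered 302837 to 1038727 per solvent library, 1092220 to 3034331 after 1 TMZ exposure, 3225629 to 6260235 after 3 and 5903327 to 10513879 in naked DNA. Over the same order the share of mitochondrial G listed on both strands was 38.9% ± 13.5, 55.9% ± 17.2, 74.6% ± 5.30 and 89.0% ± 1.39. G made up 21.5%, 40.9%, 59.5% and 68.2% of autosomal sites, but 23.8%, 31.4%, 35.4% and 36.7% of mitochondrial sites. These shares cannot be compared directly, because each strand of a mitochondrial position can be listed only once per library, which caps the G share of mitochondrial lists as more G are listed. The number of autosomal G sites is itself a count of marks, so it is not a measure of sequencing depth alone, and it rises with treatment in this series. Listing did not follow it alone. Naked DNA replicate 2, with 5903327 autosomal G sites, listed 89.4% of mitochondrial G, and WT replicate 2 after 3 TMZ exposures, with 6260235, listed 76.9%.

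**Figure D2:**
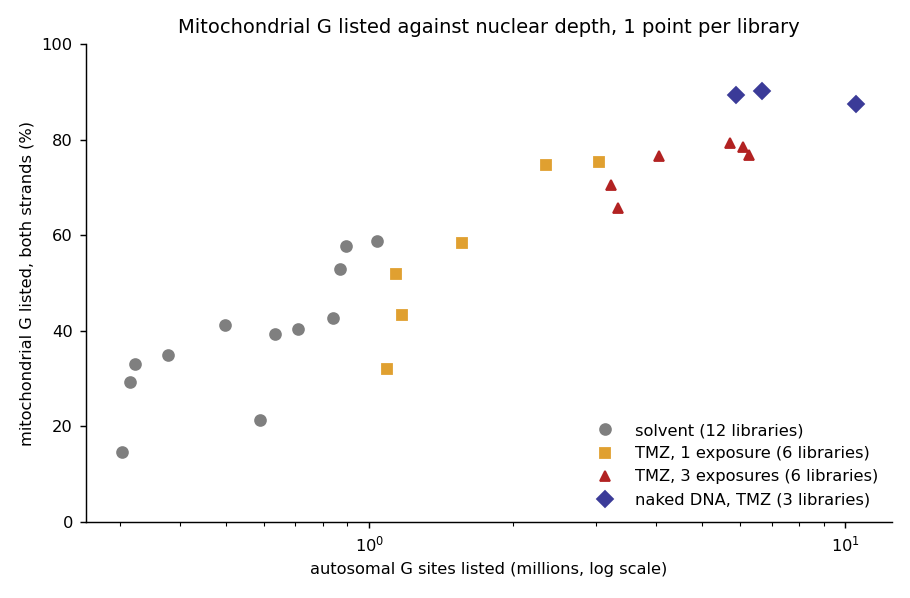
Share of mitochondrial G listed on both strands (%) against autosomal G sites (in units of 1000000, log axis), with 1 point per library. Solvent libraries lie between 14.8% and 58.7%, and naked DNA libraries lie near 89.0% at 5.90 to 10.5 on the horizontal axis.

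Per 1000000 autosomal G sites, the mitochondrial G rate was 0.863 ± 0.255 with solvent, 0.514 ± 0.104 after 1 TMZ exposure, 0.303 ± 0.0588 after 3 and 0.308 ± 0.0972 in naked DNA. TMZ minus solvent was -1.09 on the log2 scale, lower in 12 of 12 pairs (exact permutation p = 0.000275, adjusted p = 0.000779). It was -0.17, -0.999 and -1.11 within sets 1, 2 and 3, and -1.16 without set 1. After 3 exposures the value was lower than after 1 by 0.76 (difference -0.76, with ranges that overlap, exact permutation p = 0.01, adjusted p = 0.0189), and the difference was -0.47 without replicate 2. MGMT minus WT was 0.06 (exact permutation p = 0.735), at -0.46, 0.11 and 0.22 within the sets.

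The mitochondrial rate per autosomal site was also computed for the other bases, and the G value was divided by it, an alternative chosen after the data were seen. On this scale TMZ minus solvent was -0.81 (12 of 12 pairs, exact permutation p = 1.25e-05, the smallest possible; adjusted p = 5e-05 over 4 comparisons) and 3 exposures minus 1 was -0.57 (ranges that overlap, exact permutation p = 0.005, adjusted p = 0.01). Within sets 1, 2 and 3 TMZ minus solvent was -0.30, -0.76 and -0.94, and within sets 2 and 3 the exposure difference was -0.56 and -0.26. The scale sets mitochondrial lists near saturation against unsaturated autosomal lists, and its rate allows for saturation only if G are listed independently, and they recurred beyond independence. The part of saturation in these differences was not tested. The log2 value itself was 2.01 ± 0.0564 in solvent libraries, with a range of 1.92 to 2.09, 1.49 ± 0.319 after 1 TMZ exposure, 0.92 ± 0.128 after 3 and 0.83 ± 0.125 in naked DNA. It sets rates per mitochondrial position against numbers of autosomal sites. Its level and the differences above therefore carry the G share of autosomal sites. This share was 21.5% with solvent, 40.9% after 1 TMZ exposure and 59.5% after 3. The level is not an excess of mitochondrial G, and the negative differences are not by themselves a fall of it. The mitochondrial ratio of G to other bases was itself higher with TMZ, by 0.95 on the minus and 1.00 on the plus strand. The part of the autosomal share in the differences was not tested. On this scale MGMT minus WT was 0.25, higher in 6 of 6 pairs (0.19 to 0.34), with exact permutation p = 0.055 and adjusted p = 0.0733. Same-numbered MGMT and WT libraries under TMZ deviated together in 6 of 6 pairs, and in a test blocked by replicate number this difference passed (exact permutation p = 0.03125, the smallest possible; adjusted p = 0.0417 over 4 comparisons), so its call rests on the pairing. Within sets 1, 2 and 3 it was 0.34, 0.20 and 0.28. The G share of autosomal sites, which enters this scale, was lower in MGMT cells in each pair. It was 34.3%, 32.2% and 43.5% against 41.7%, 41.4% and 52.0% after 1 exposure. After 3 it was 51.99%, 61.1% and 59.6% against 59.1%, 63.4% and 61.9%. The mitochondrial ratio of G to other bases differed by -0.01 (minus) and -0.14 (plus strand), neither called. The 0.25 alone thus does not show a higher mitochondrial G rate.

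The same G recurred more often than independent listing would give. On the minus strand, the 3 libraries of WT cells after 3 TMZ exposures listed 78.2% of G on average, any 2 of them together 89.0% and all 3 together 92.7%, where independent listing at these shares would reach 99.0%. On the plus strand the values were 76.0%, 87.5% and 91.8%, against 98.6%. Naked DNA went from 90.1% to 95.7% and 97.2% on the minus strand, against 99.9%. WT cells after 3 solvent exposures went from 34.3% to 52.2% and 62.8%, against 71.7%, so recurrence beyond independence was present with solvent too. The other bases recurred beyond independence as well, with a larger ratio, although shares near saturation leave G less room for one. All 6 libraries after 3 TMZ exposures listed 39.9% of plus-strand G, 2.55 times the product of the libraries' shares, and 3.40% of the other plus-strand bases, 11.9 times the product of theirs.

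Over the 12 TMZ libraries a minus-strand G was listed by a median of 9 and a plus-strand G by 8, against 4 and 5 of the 12 solvent libraries. On the minus strand 466 G (8.996%) were listed by 12 of 12 TMZ libraries and on the plus strand 125 (5.76%), while 15 and 8 were listed by 12 of 12 solvent libraries. Of those 466, 90.6% followed a purine (A or G), compared with 62.0% of all minus-strand G, and 99.4% were in 3 of 3 naked DNA libraries, compared with 80.4% of all. Of the 125 on the plus strand, 79.2% followed a purine, compared with 56.3% of all, and 100% were in 3 of 3 naked DNA libraries, compared with 74.04% of all. At the other end, 601 minus-strand G were in 3 or fewer of the 12 TMZ libraries, and 37.6% of these followed a purine. All 27 libraries listed 7 G on the minus and 4 on the plus strand.

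**Figure D3:**
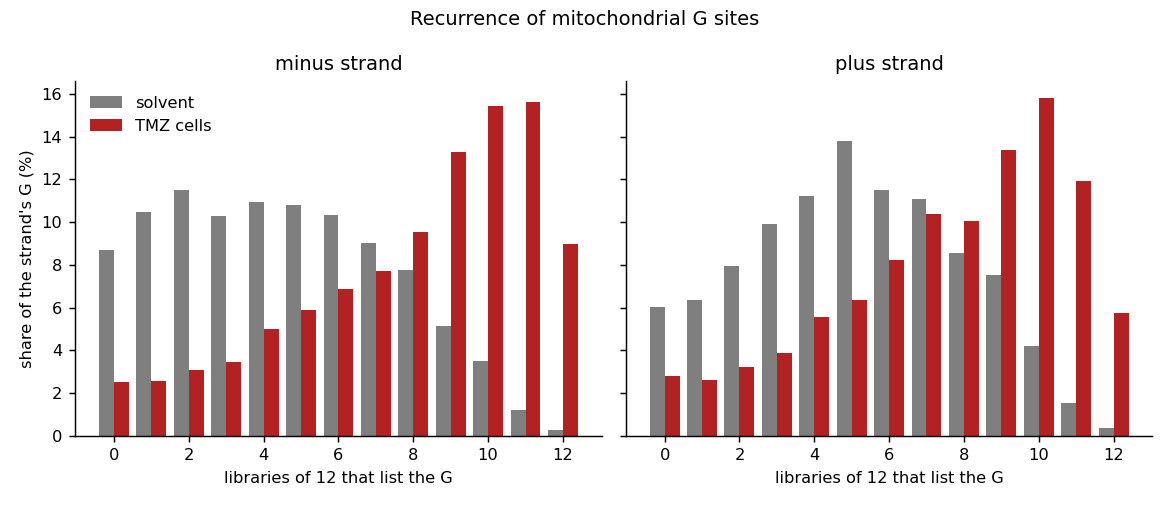
Share of each strand's G (%) by the number of libraries, out of 12 solvent or 12 TMZ libraries, that list it. With TMZ 8.996% of minus-strand and 5.76% of plus-strand G are in all 12, and the median moves from 4 to 9 and from 5 to 8 libraries.

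The base before the G sorted the sites after TMZ, but hardly in 11 of the 12 solvent libraries. On the minus strand, G after A was listed at 38.2%, 72.8% and 93.8% with solvent, TMZ and naked DNA, and G after G at 37.3%, 74.4% and 95.03%. G after C was listed at 34.6%, 52.5% and 82.5%, and G after T at 37.2%, 54.4% and 83.1%. On the plus strand, G after A went from 44.0% with solvent to 70.3% with TMZ, and G after T from 40.9% to 52.0%. The log2 ratio of the rate after a purine to that after a pyrimidine was 0.04 ± 0.176 (n = 12) with solvent and 0.80 ± 0.175 (n = 12) with TMZ. The difference of 0.76 (1.69-fold) was present in 12 of 12 pairs (exact permutation p = 2.5e-05, adjusted p = 0.0002125), and was 0.40, 0.69 and 0.89 within sets 1, 2 and 3. The solvent library of MGMT replicate 1 after 1 exposure, in set 1, stood at 0.57, above the lowest TMZ value of 0.45, while the next solvent value was 0.13; without set 1 the difference was 0.80. MGMT minus WT was -0.03 (exact permutation p = 0.725).

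With both neighbours counted, 29 of 32 contexts (16 per strand) differed between TMZ and solvent in limma at adjusted p 0.05, a background of 90.6%, with 15 higher and 14 lower relative to the strand's mean. The lowest were CGA on the minus strand at -0.75 (SE 0.0734, limma adjusted p = 1.43e-08), TGA at -0.52 and TGT at -0.50, both on the minus strand. The highest were GGT on the plus strand at 0.67 (SE 0.108, limma adjusted p = 8.38e-06), GGC on the minus strand at 0.61 and GGC on the plus strand at 0.59. Each context with a purine first rose, although GGG on the plus strand (0.15 with solvent, 0.19 with TMZ) was not called. Between MGMT and WT under TMZ, limma called 0 of 32 contexts (0%), with 0 at an unadjusted p under 0.05.

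Listing varied more along the circle with solvent than with TMZ. Over the 13 protein genes, 2 ribosomal RNA genes, the pooled tRNA genes and the control region, the SD of log2 G rate with solvent was 0.86 on the minus and 0.55 on the plus strand. It was 0.42 and 0.38 in TMZ-exposed cells and 0.29 and 0.35 in naked DNA. For the other bases the SD with solvent, TMZ and naked DNA was 0.84, 0.62 and 0.40 on the minus strand, so this was not particular to G. On the plus strand it was 0.55, 0.49 and 0.50. With solvent, minus-strand G were listed least in RNR2 (14.2% ± 6.53), ND3 (14.5% ± 8.51), RNR1 (17.1% ± 7.55) and COX1 (19.0% ± 6.69). ND3 encodes a complex I subunit. They were listed most in ND6 (57.3% ± 23.2), a complex I gene read in the opposite direction to the other protein genes, ND5 (51.2%), CYTB (51.0%) and ND4 (49.5%). CYTB encodes the cytochrome b subunit of complex III, and ND4 and ND5 encode complex I subunits.

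**Figure D4:**
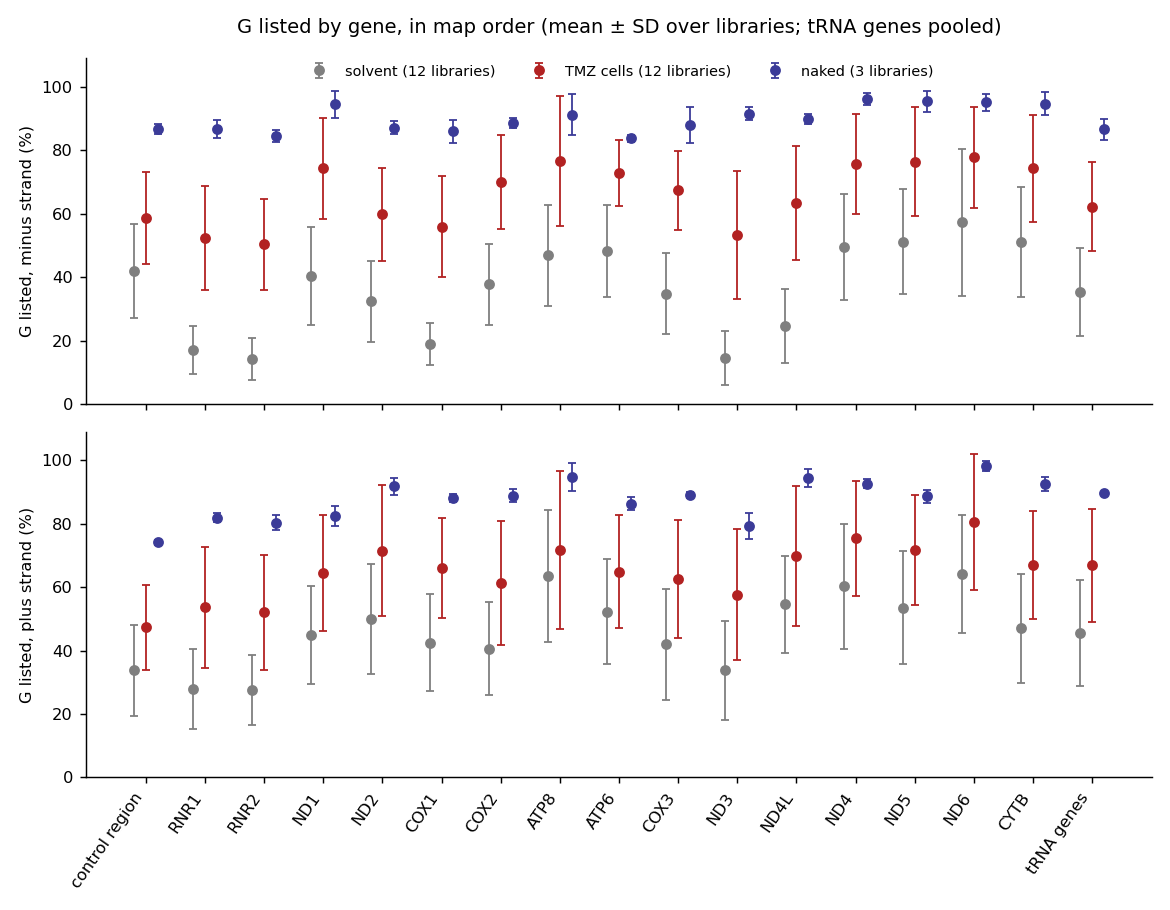
Share of G listed (%) per gene in map order on the minus (upper) and plus strand (lower), as mean ± SD over libraries, with tRNA genes pooled. RNR2 goes from 14.2% with solvent to 50.4% with TMZ and 84.6% in naked DNA on the minus strand, while ND6 goes from 57.3% to 77.9% and 95.2%.

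The other bases had nearly the same profile along the circle with solvent. Over the 17 regions Pearson's r between the log2 rate of G and that of the other bases was 0.986 on the minus and 0.968 on the plus strand with solvent, 0.959 and 0.894 in TMZ-exposed cells, and 0.624 and 0.832 in naked DNA. These are descriptions across regions that share libraries, depth and local sequence, and they carry no test. The score that accompanies each site also varied along the circle, and in ATP6, ND2, COX1 and RNR1 between 30.2% and 56.02% of listed G had a score of 30 or more, by strand and for solvent, TMZ and naked DNA, against 62.7% to 74.7% of all mitochondrial sites in a library.

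Between TMZ and solvent, 18 of 34 regions (17 per strand) differed in limma, a background of 52.9%, with 7 higher and 11 lower relative to the strand's mean and a median difference of -0.05 over all 34. ND3 on the minus strand rose most, by 1.05 (SE 0.200, limma adjusted p = 0.000159). Its share was lowest 0.980%, median 16.2% and highest 28.4% with solvent, and 19.6%, 57.4% and 78.4% with TMZ, so the ranges overlapped. RNR2 on the minus strand rose by 0.81 (SE 0.128, limma adjusted p = 6.14e-05), from a solvent range of 5.54% to 25.4% to a TMZ range of 25.4% to 65.0%. RNR1 on the minus strand rose by 0.57 (SE 0.108, limma adjusted p = 0.000159). ND3, RNR2 and RNR1 on the minus strand were among the regions least listed with solvent. The solvent value is part of each difference and the spread over regions was smaller with TMZ. That the least listed regions rose is therefore not a separate result.

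The control region on the minus strand fell most, with a log2 difference of -0.71 (SE 0.0627, limma adjusted p = 1.01e-08) and 12 of 12 pairs lower. Its mean share was still higher, going from 41.96% ± 14.9 with solvent to 58.7% ± 14.5 with TMZ and 86.8% ± 1.69 in naked DNA. ND6 on the minus strand differed by -0.54 (SE 0.167, limma adjusted p = 0.00803). ATP8 on the plus strand, a subunit gene of ATP synthase with 13 G there, differed by -0.52 (SE 0.141, limma adjusted p = 0.00302). Both lost their calls when only sites with a score of 30 or more counted, at -0.37 for ND6 and -0.13 for ATP8, and ND6 also without replicate 3 (-0.41). Falling here means falling behind the strand's mean, since the mean share of listed G was higher with TMZ in all 3.

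When each region's G rate was divided by the rate of its other bases, a setting chosen after the data were seen, 15 of 34 were called. The control region (-0.33), ND3 (0.83) and RNR1 (0.24) on the minus strand and ATP8 (-0.42) on the plus strand kept their calls. ND6 (-0.08, limma adjusted p = 0.516) and RNR2 (0.22, limma adjusted p = 0.0865) on the minus strand lost theirs. The other bases of RNR2 had themselves risen by 0.59 and those of the control region fallen behind by 0.39 (log2 difference -0.39). Between MGMT and WT under TMZ, limma called 0 of 34 regions (0%), with 1 at an unadjusted p under 0.05.

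Over both strands the control region had a log2 G rate relative to the rest of the circle of 0.02 ± 0.187 (n = 12) with solvent and -0.44 ± 0.166 (n = 12) with TMZ. The difference of -0.46 was present in 12 of 12 pairs (exact permutation p = 1.25e-05, the smallest possible; adjusted p = 0.0002125) and was -0.29, -0.48 and -0.52 within sets 1, 2 and 3. Naked DNA, at -0.34 ± 0.0561 (n = 3), was not called different from WT cells under TMZ (0.15, exact permutation p = 0.143), but it was called, at 0.52, when only sites with a score of 30 or more counted (exact permutation adjusted p = 0.0202). Within the control region, minus-strand G before the numbering start were listed at 59.1%, 70.8% and 95.9% with solvent, TMZ and naked DNA, and those after it at 26.1%, 47.4% and 78.3%. The lowest shares lay next to the ends of the numbered sequence, 14.3%, 24.1% and 49.7% for minus-strand G of the first 200 bases and 16.7%, 33.3% and 53.0% for plus-strand G of the last 200. Sequence numbering cuts the circle there, and the part of that cut in these low values was not tested.

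No library listed 117 G, 74 on the minus and 43 on the plus strand. At least 1 library listed 98.6% of minus-strand and 98.02% of plus-strand G. For positions with another base this was 96.5% and 96.4%, so G were missed less often. Of the unlisted G, 22 on the minus and 15 on the plus strand lay within 200 bases of an end. The stretches with the most such G were chrM:4-80 on the minus strand (21 G), chrM:16483-16569 on the plus strand (15 G) and chrM:8915-8941 on the minus strand (13 G). The last lies in ATP6, a subunit gene of ATP synthase, whose minus strand held 25 unlisted G outside its overlap with ATP8 and 1 within that overlap, at 8553. The 25 fall within 83 bases, chosen after these values were seen and printed here 5′ to 3′ on the minus strand with each unlisted G in capitals.
ATP6 gap, minus strand, chrM:8861-8943: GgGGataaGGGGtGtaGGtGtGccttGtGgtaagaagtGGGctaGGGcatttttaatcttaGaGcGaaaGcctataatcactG
These 83 bases hold 29 G on the minus strand, of which 25 were in no library, and 3 of 54 positions with other bases were listed on that strand. All 10 G of the plus strand in the same interval were listed. The gap was therefore one of the minus strand and of all its bases, not of G alone.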

How the data were processed

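The deposited files are 1 list per library with no header: contig, position counted from 0, strand, the base read on it, and a score in whole numbers (0 to 42). The deposited score is not a number of reads, its meaning is not given in the sources used here, and no minimum was set except in making the sets. Per the submitters' processing notes the tools were FastQC 0.11.9, Trimmomatic 0.38 and 0.39, cutadapt, Bowtie2 2.3.5.1, GATK 4.2.0.0, SAMtools 1.12 and bedtools 2.29.2, and the build GRCh38 (hg38); how reads from nuclear copies of mitochondrial sequence or repeated reads were handled is not given. Positions are printed counted from 1. Gene bounds came from the RefSeq table (37 mitochondrial genes, matched by name), which gives no strand.

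Each library's share of G listed on a strand was turned into a rate, -ln(1 - share). The 17 single-value comparisons used exact two-sided permutation tests within the other factors, adjusted together (Benjamini-Hochberg). Regions and contexts were fitted with limma 3.58.1 (R 4.3.3) on log2 rates centred per strand and library, with 0.5 positions added, 8 group means over 24 cell libraries, and a threshold of adjusted p 0.05. Python 3.11.15, numpy 2.4.6, pandas 2.3.3, scipy 1.17.1 and matplotlib 3.10.9 did the rest. The permutation test and the limma fit were tested on simulated data with independent values, and the other steps were not. Named were at most 3 regions and contexts per direction past the threshold, 5 positions per strand by TMZ minus solvent libraries, and 3 stretches of unlisted G. Alternatives were a score of 30 or more, rates replaced by shares, 200 end bases removed, regions with at least 50 G, arcs of 500 bases, the replicate number as a block and each replicate left out. Under TMZ, same-numbered WT and MGMT libraries had correlated deviations from their group means over regions (r 0.14 to 0.39, above 0.1 in 6 of 6 pairs), so the numbers were taken to pair these groups and no others. Members and lists were chosen with earlier results of these data known. Sets join libraries whose sharing of autosomal sites, with a base other than G and a score of 30 or more, exceeds 1.6 times the median pair (48 of 351 pairs). Intervals cover counting error only.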

Additional observations from a re-analysis of the deposited data

Results flagged for a closer look

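The difference between TMZ and solvent was itself larger after 3 exposures than after 1 in 4 measures, by permutation of the exposure labels (exact adjusted p = 0.025 for each). Each difference was taken between TMZ and solvent libraries of the same number, although the numbers were not taken to pair treatments, so these p-values rest on that pairing. For replicate 3 after 3 exposures it joins TMZ libraries of set 3 with solvent libraries of set 4. For the log2 ratio of G to other bases, TMZ minus solvent was 0.65 after 1 exposure and 1.25 after 3 on the minus strand (a gap of 0.60, exact permutation p = 0.01), and 0.57 and 1.43 on the plus strand (a gap of 0.86, exact permutation p = 0.01). For G after a purine against G after a pyrimidine it was 0.57 and 0.95 (a gap of 0.38, exact permutation p = 0.005). For the mitochondrial G rate per 1000000 autosomal G sites it was -0.46 and -1.71 (a gap of -1.25, exact permutation p = 0.005). The libraries of set 1 are all of 1 exposure, and their part in these gaps was not tested.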

How the results depend on the processing

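Of the 17 single-value comparisons 9 passed, 8 of these kept their direction in every setting run, and 5 also kept their call. The exception in direction was the strand ratio of G relative to the other bases, chosen after the data were seen, where TMZ minus solvent was -0.0496 and the uncalled differences became 0.1332 (MGMT minus WT) and -0.0961 (naked DNA minus WT). Without set 1, chosen after the data were seen, all 9 kept direction and call, and naked DNA minus WT cells for the mitochondrial rate per autosomal site, not called, turned to 0.0061. At a score of 30 or more the uncalled naked DNA minus WT strand ratio became -0.1829, MGMT minus WT 0.0533 for G to other bases on the minus strand and 0.0444 for purine context, while naked DNA minus WT in the control region was called at 0.5158 (exact permutation adjusted p = 0.02024). Mean shares at this score were, on the minus strand, 47.71% for WT 1 TMZ, 26.25% for WT 3 solvent, 54.86% for WT 3 TMZ, 50.97% for MGMT 3 TMZ and 58.59% for naked DNA; on the plus strand 30.37% for MGMT 1 TMZ, 26.6% for WT 3 solvent, 50.08% for WT 3 TMZ, 32.84% for MGMT 3 solvent, 47.52% for MGMT 3 TMZ and 55.4% for naked DNA. Without 200 end bases WT 3 TMZ was 77.0% on the plus strand.

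With shares in place of rates the 3 against 1 exposure difference on the minus strand was 0.1932 and no longer called, and uncalled differences turned to -0.073 (naked DNA minus WT, strands), 0.0992 (MGMT minus WT, G to other bases, minus strand) and 0.0594 (MGMT minus WT, purine context). Leaving out each replicate in turn, the 3 against 1 exposure differences ran from 0.3033 to 0.5662 (minus strand), 0.5672 to 0.7887 (plus strand) and -1.0529 to -0.4666 (mitochondrial rate); there the smallest possible p is 0.0556. Uncalled differences crossed zero: MGMT minus WT from -0.0514 to 0.0268 (G to other bases, minus strand), -0.0895 to 0.0043 (purine context) and -0.0336 to 0.1877 (mitochondrial rate), naked DNA minus WT from -0.5541 to 0.002 (mitochondrial rate) and -0.0935 to 0.1922 (strands).

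Replicate numbers were taken to pair WT and MGMT libraries under TMZ. Elsewhere r over regions was above 0.1 in part of the pairs, 10 of 12 for treatments, 1 of 6 for exposures and 5 of 6 for naked DNA, and 11, 1 and 4 correlated best with their own number, a hint of pairing between treatments. With the replicate block, 3 against 1 exposure was 0.444 and 0.6867 (adjusted p 0.06641 each by exact permutation) and -0.7574 (0.1181). The differences did not change, and 0.444 and 0.6867 had unadjusted exact permutation p = 0.03125, the smallest possible with 6 pairs. The block changed no genotype call except that of the mitochondrial rate relative to other bases, called at 0.2519 (adjusted p 0.0417 by exact permutation). That scale also carries the G share of autosomal sites, which was lower in MGMT cells. Region calls numbered 15 to 22 of 34 and context calls 21 to 30 of 32, and MGMT minus WT stayed at 0. Near saturation, differences between shares shrink.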

Other observations

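Runs of G were mostly listed more often than single G on the minus strand. On the minus strand a single G was listed at 34.1% with solvent, 56.8% with TMZ and 84.4% in naked DNA, the first G of a pair at 43.2%, 72.5% and 92.9%, and the second at 35.5%, 74.3% and 95.05%. The G of a run of 3 were, in order, at 41.6%, 38.4% and 32.4% with solvent and 70.9%, 78.3% and 68.6% with TMZ. In runs of 5 or more the solvent value was already 45.5%, against 76.6% with TMZ and 96.6% in naked DNA. With TMZ, plus-strand G of a pair were at 69.7% and 71.3%, against 59.8% for a single G, while those of the fewer runs of 3 were at 59.96%, 64.7% and 56.5%.

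Positions next to a G were listed more often than others of the same base. On the minus strand, A with a G on its 3′ side was listed at 39.99%, 49.9% and 73.9% with solvent, TMZ and naked DNA, against 28.5%, 31.3% and 46.2% for A with no G on either side.

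Some G were listed more often with solvent, and they were named after their values were seen. The minus-strand G at 5452 in ND2 (TGT) was in 11 solvent and 6 TMZ libraries, that at 12867 in ND5 (CGA) in 8 and 3, and the plus-strand G at 10646 in ND4L (TGC) in 10 and 5. In each of these the base before the G was T or C. Among tRNA genes, TRNC on the minus strand, with 16 G, was listed at 20.8%, 22.4% and 47.9% with solvent, TMZ and naked DNA.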
